A study of Mus musculus with 20 samples.

Results

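Heat shock proteins, chaperones and folding enzymes were measured in liver RNA of mice that differ in gonadal type and in sex chromosomes. The set holds every gene whose symbol places it among the heat shock proteins, the J proteins (Dnaj), the subunits of the cytosolic chaperonin TRiC (Cct), the protein disulfide isomerases (Pdia), the Bag co-chaperones, the FK506-binding prolyl isomerases (Fkbp), the cyclophilins (Ppia to Ppih) or the lectin chaperones Calr and Canx, with Fkbp5 left out. It comprised 87 genes, measured by 142 probes, of 11647 named genes and 21556 features on the array. The rule reads symbols and no measured value, but it was set, with Fkbp5 left out, when earlier results of these data were known. Most of these genes, 70, had 1 probe, and the other 17 were averaged over several.

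All animals were C57BL/6J mice of the FCG cross, which separates gonads from sex chromosomes: Sry, the gene that makes a testis, is deleted from the Y and returned as a transgene on an autosome. Gonadal males carried the transgene and formed the groups XX Sry and XY-Sry. Gonadal females lacked it and formed the groups XX and XY-, where Y- is the chromosome without Sry. Each group had 5 animals. All 20 were fed 4% fat chow, gonadectomized at 8 weeks of age and, after fasting for 12 h, killed at 12 weeks, so that neither gonadal type had gonads for the last weeks. A difference between gonadal types is therefore one between animals that had testes or ovaries until surgery, and that carry or lack the transgene. Each liver was hybridised in Cy5 against a common pool of liver RNA in Cy3, and every level below is a log2 ratio of a liver to that pool. No absolute level was measured, so levels are not compared between genes.

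Chaperones bind unfolded or partly folded proteins and help them reach their native shape. In the cytosol, Hsp70 proteins work with J proteins, which deliver substrates and stimulate ATP hydrolysis, and with Hsp110, Bag and other factors that exchange the nucleotide; Hsp90 acts later, on kinases and steroid receptors, and the ring-shaped TRiC encloses substrates such as actin and tubulin. Mitochondria have their own Hsp70 (Hspa9) and a chamber built of Hspd1 and Hspe1. The endoplasmic reticulum (ER), busy in hepatocytes with plasma proteins, has Hspa5 (BiP), Hsp90b1, the lectins Calr and Canx, and disulfide isomerases. The transcription factor HSF1 raises the cytosolic set after heat or proteotoxic stress, and the unfolded protein response raises the ER set.

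Motifs of these stress responses were searched in the 250 bases before the start sites of RefSeq genes (GRCm38.p6), of which the promoter table held 74 of the 87 members. The heat shock element was taken as GAANNTTCNNGAA, 3 alternating units of 5 bases, read on both strands. The ER stress element was taken as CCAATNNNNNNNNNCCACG, also on both strands. Of the 74 members, 3 held the heat shock element (Hspd1, Hspe1 and Dnajb6), or 4.05%, against 0.514% of all 27025 genes in the table. The ER stress element was found in 5 members (Hspa5, Hsp90b1, Calr, Canx and Dnajc3), or 6.76%, against 0.1295% of all genes. A match describes these letters and is not evidence that a factor binds there.

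The stretch between Hspd1 and Hspe1 is shown because both genes, which encode the mitochondrial chamber and its lid, start from the same piece of DNA in opposite directions. It lies at chr1:55088039-55088096, and each line below reads from 20 bases before the first match to 20 bases after the last, in the direction of the named gene. Capitals mark the 2 overlapping matches to the heat shock element.
Hspd1 (minus strand): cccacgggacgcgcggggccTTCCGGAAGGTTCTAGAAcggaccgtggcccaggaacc
Hspe1 (plus strand): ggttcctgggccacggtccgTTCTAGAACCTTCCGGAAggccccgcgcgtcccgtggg

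The ER stress elements are shown for the 5 members that hold one, all of them genes of ER folding described below. Capitals mark the element, with 20 bases on either side, at chr2:34772005-34772063 (plus strand) for Hspa5, chr8:84847055-84847113 (minus strand) for Calr, chr11:50325780-50325838 (minus strand) for Canx, chr14:118937807-118937865 (plus strand) for Dnajc3 and chr10:86705513-86705676 (minus strand) for Hsp90b1. Calr holds the element on the strand opposite to its transcription, and Hsp90b1 holds 2, 1 on each strand.
Hspa5: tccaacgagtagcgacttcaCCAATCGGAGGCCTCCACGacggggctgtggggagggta
Calr: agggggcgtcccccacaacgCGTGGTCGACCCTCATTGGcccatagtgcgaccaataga
Canx: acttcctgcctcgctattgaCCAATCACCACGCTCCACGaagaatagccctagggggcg
Dnajc3: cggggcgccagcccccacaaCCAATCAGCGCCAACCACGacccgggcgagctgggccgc
Hsp90b1: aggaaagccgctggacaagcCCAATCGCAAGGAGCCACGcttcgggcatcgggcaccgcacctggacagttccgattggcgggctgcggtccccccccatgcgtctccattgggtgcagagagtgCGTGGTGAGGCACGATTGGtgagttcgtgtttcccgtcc

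The sex-linked genes bore out the labels in 19 of 20 livers. The library labelled XY- 30 had Eif2s3y, a Y-linked translation factor gene, at -3.90, near the XX group (-4.42 to -2.46) and far from its own, whose remaining livers had 0.57 to 0.63. Values without this library are given beside the results it moves. Over all probes the SD of an array's log2 ratios was 0.175 to 0.341, and the 4 widest arrays were all of gonadal females: XX 6, XX 2, XY- 12 and XY- 3. Whether each array's median was set to 0 by the submitters is not stated; array medians of log10 ratios lay between -0.011 and 0.015.

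Between gonadal types, 5 of the 87 members passed the test at an adjusted p of 0.05 (limma, Benjamini-Hochberg adjustment over all 21556 features). Higher in gonadal males were Cct4 and Cct6a of TRiC, the mitochondrial Hsp70 gene Hspa9, and Dnajc21, a J protein gene that serves in ribosome assembly. Pdia5, a disulfide isomerase gene of the ER, was lower. These 5 are 5.75% of the members, where 3.75% of all features passed, 1.47% higher and 2.28% lower, so the share lay near the background. The differences were small, from 1.18-fold to 1.36-fold. At an unadjusted p under 0.05 there were 22 members, 15 higher and 7 lower, or 25.3% against 17.8% of all features. The median member differed by 0.054 and the median feature by 0.0075, and 55 members (63.2%, against 53.7% of all features) were above 0.

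The calls depended on single libraries. Without the library labelled XY- 30, 10 members passed (5.24% of all features did), namely the same 5 with Cct2, Cct3, Cct8, Hspd1 and Hspe1. The count was 0 without any 1 of XX Sry 18, XX Sry 31, XY-Sry 19 or XX 2. In these fits 2.22%, 1.86%, 1.81% and 2.28% of all features passed, against 3.75% with all 20 livers. The member count was 1 to 3 without any 1 of XX Sry 38, XX Sry 9, XX Sry 32, XY-Sry 27, XY-Sry 5, XX 21, XX 35, XY- 12, XY- 24 or XY- 22. There 2.46% to 3.86% of all features passed. The share was below 3.75% in each of these fits except that without XY- 12, where it was 3.86%. Without the 4 arrays of widest spread, Pdia5 and Fkbp9 passed (3.85% of all features did). The split of 4 higher and 1 lower became 2 and 1 with median-centred arrays and 4 and 3 with quantile normalization. With these scalings 706 and 1190 features passed, against 808 in the main fit.

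**Figure D1:**
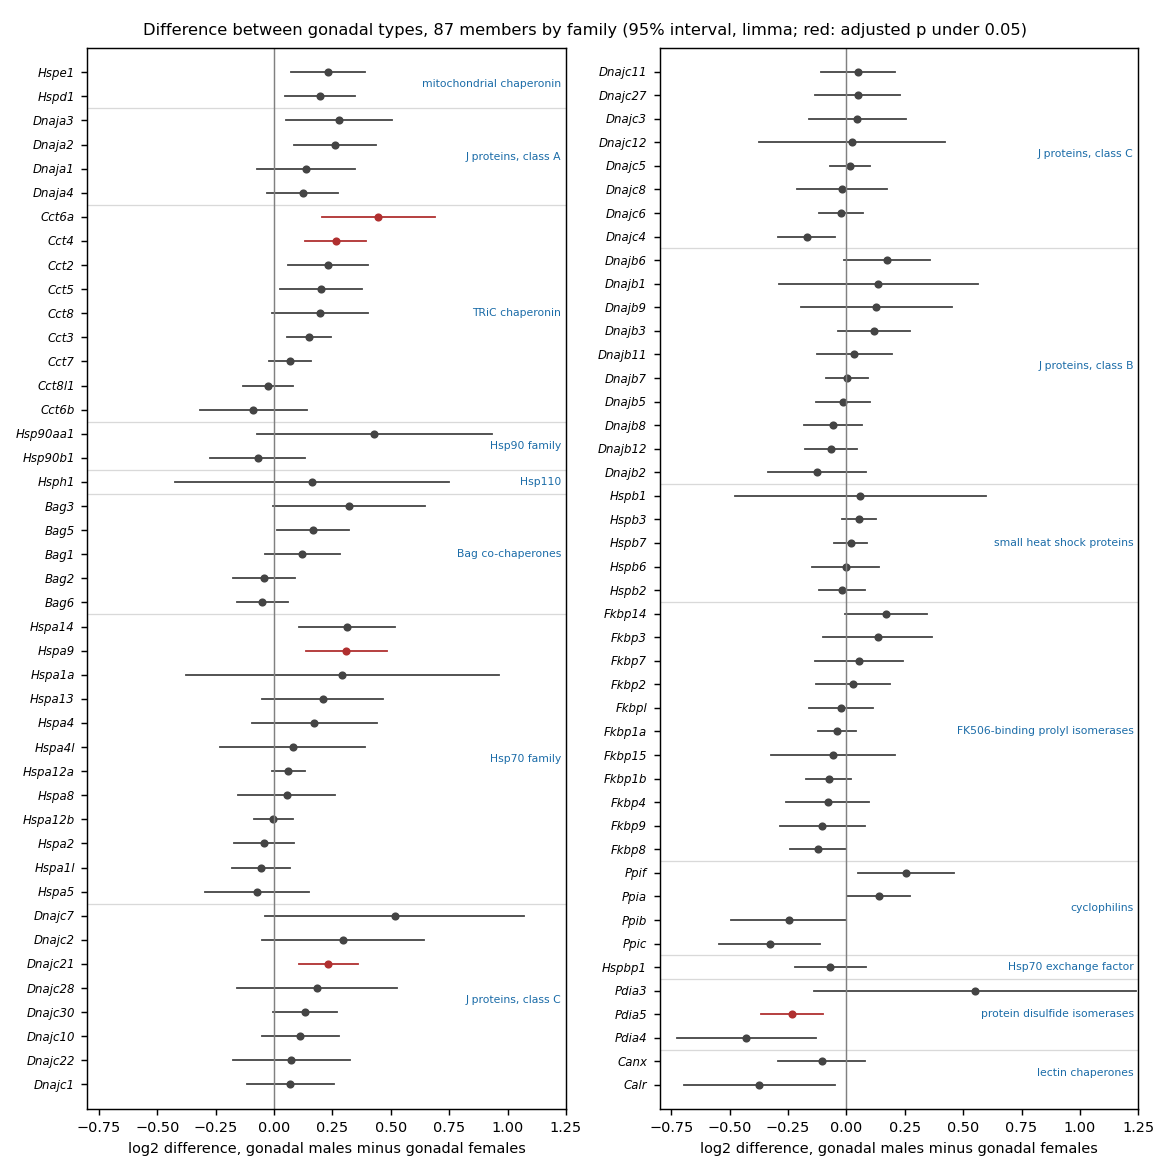
Difference between gonadal types for each of the 87 members, as log2 of gonadal males minus gonadal females on the horizontal axis, with bars for limma's 95% interval; families are separated by grey lines. The 5 members past the threshold are red, and the intervals of Pdia3, Dnajc7, Hspa1a, Hsph1 and Hspb1 are among the widest.

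TRiC is a double ring of 8 different subunits, 7 of which (Cct2, Cct3, Cct4, Cct5, Cct6a, Cct7 and Cct8) are members here. Cct4 ranged from -0.11 to 0.30 in gonadal males, with a median of 0.13, and from -0.35 to 0.16 in gonadal females, with a median of -0.16. All 10 gonadal males lay above the female median, 4 of them above the highest female. The difference was 0.26 ± 0.063 (SE, 10 livers a side), with an adjusted p of 0.0251 in limma. Cct6a ranged from -0.14 to 0.49 in gonadal males, with a median of 0.18, and from -0.89 to 0.23 in gonadal females, with a median of -0.21. The 2 lowest livers for Cct6a, XX 2 at -0.89 and XY- 3 at -0.65, were both arrays of wide spread. The Cct6a difference was 0.45 ± 0.12 (SE), or 1.36-fold, with an adjusted p of 0.0365 in limma.

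The other subunits lay on the same side without passing the test. Their differences were 0.15 for Cct3, 0.23 for Cct2, 0.20 for Cct5, 0.20 for Cct8 and 0.069 for Cct7, with adjusted p of 0.0699, 0.125, 0.210, 0.304 and 0.444 in limma. Cct3 averages 3 probes, whose differences were 0.20, 0.21 and 0.035. Fitted alone in limma, these had adjusted p of 0.0440, 0.0474 and 0.734. Tcp1, the subunit whose symbol falls outside the rule, was 0.36 ± 0.095 (SE) higher in gonadal males, with an adjusted p of 0.0407 in limma. Thus all 8 subunits had a difference above 0, and 3 passed; 6 passed without the library labelled XY- 30 and none without the 4 wide arrays, where all 8 were still above 0 and the median fell from 0.22 to 0.14. The mean over the 8 subunits spanned -0.024 to 0.23 in gonadal males and -0.41 to 0.17 in gonadal females, so the groups overlapped. The highest female value belonged to the library labelled XY- 30, and the next to XX 29 at 0.022. Cct6b, a testis-enriched relative of Cct6a, and Cct8l1 had differences of -0.089 and -0.027.

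**Figure D2:**
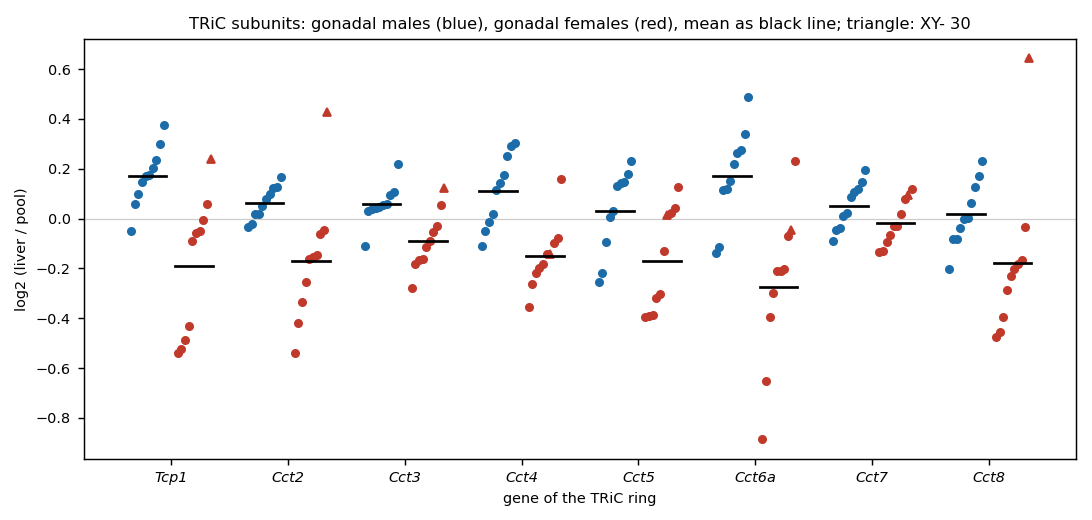
Levels of the 8 TRiC subunit genes as log2 ratio of liver to pool on the vertical axis, 1 point per animal, gonadal males in blue and gonadal females in red, with the mean as a black line. Male means lie above female means for each gene, and the triangle, the library labelled XY- 30, is the highest female for Tcp1, Cct2, Cct3 and Cct8.

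The genes of mitochondrial folding leaned the same way. Hspa9, which pulls precursors into the matrix and helps them fold, ranged from -0.095 to 0.29 in gonadal males, with a median of 0.19, and from -0.51 to 0.29 in gonadal females, with a median of -0.15. All 10 gonadal males were above the female median, and the single high female was the library labelled XY- 30. The difference was 0.31 ± 0.083 (SE), with an adjusted p of 0.0448 in limma. Within the XX complement all 5 XX Sry livers exceeded all 5 XX livers (exact permutation test, two-sided, p = 0.00794, the smallest that 5 against 5 can give). Within XY- the difference was 0.25 and the groups overlapped (exact permutation p = 0.167). The exact test was run only on members already past the threshold in these same livers, with Cct3 and Pdia4 added. Its p-values, here and below, are not adjusted and lend no separate support to the calls.

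Hspe1, the lid of the mitochondrial chamber, differed by 0.23 ± 0.076 (SE; adjusted p = 0.0993, limma), and Hspd1, its body, by 0.19 ± 0.072 (adjusted p = 0.144, limma). Both passed without the library labelled XY- 30, at 0.27 and 0.24, with adjusted p of 0.0333 and 0.0387 in limma. Ppif, the cyclophilin of the permeability transition pore, differed by 0.26 (adjusted p = 0.160, limma). Its lowest liver was the library labelled XY- 30 at -0.80, with XX 2 next at -0.34. In all, 6 of 6 measured mitochondrial members were above 0, with a median of 0.24; 1 passed, 3 without the library labelled XY- 30, and none without the 4 wide arrays, where the median was 0.18. Hspd1 rests on 11 probes whose differences ran from 0.012 to 0.39, all above 0.

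**Figure D3:**
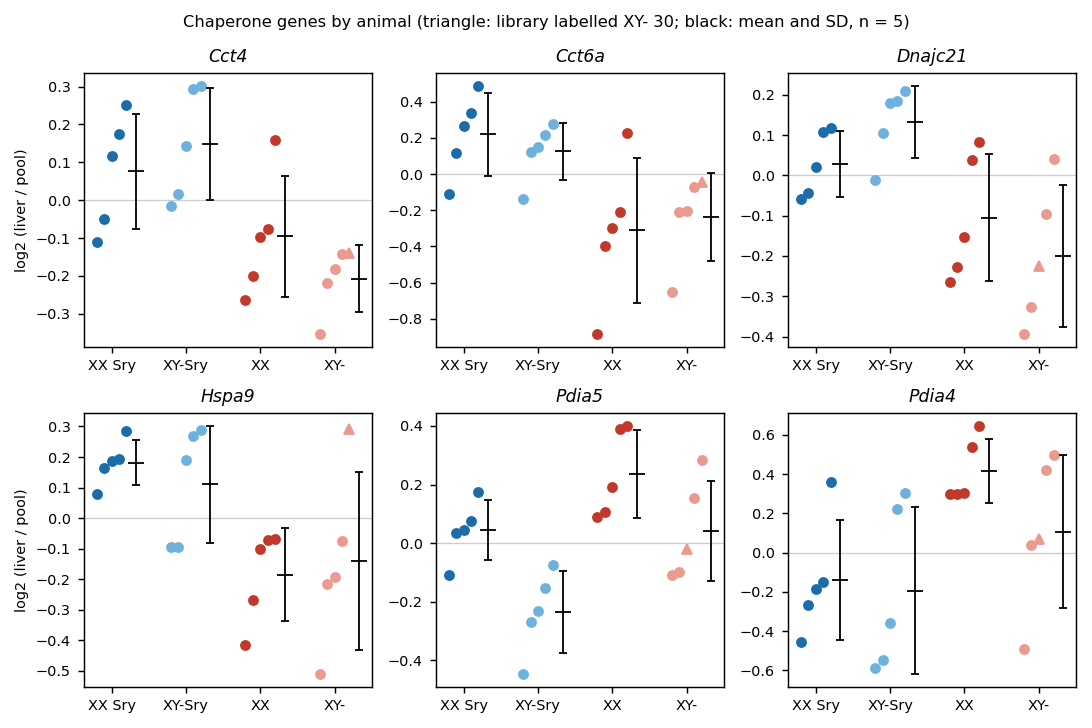
Log2 ratio of liver to pool in each animal (vertical axis) by group (horizontal axis) for the 5 members past the threshold between gonadal types and for Pdia4; black marks show mean and SD (n = 5). Cct4, Cct6a, Dnajc21 and Hspa9 are higher in the groups with Sry, Pdia5 is lower, and Pdia4 overlaps between all groups.

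Several genes of the ER lay the other way. Pdia5 ranged from -0.45 to 0.17 in gonadal males, with a median of -0.092, and from -0.11 to 0.40 in gonadal females, with a median of 0.13. Of the 10 gonadal males, 9 lay below the female median and 4 below the lowest female. The difference was -0.23 ± 0.064 (SE; adjusted p = 0.0461, limma), and it was -0.28 with an adjusted p of 0.0309 in limma without the 4 wide arrays. Its difference was -0.19 within XX and -0.28 within XY-, with exact permutation p of 0.0476 and 0.0238.

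Pdia4, a disulfide isomerase that works beside BiP, had the largest negative difference of the members, -0.43 ± 0.14 (SE), but an adjusted p of 0.101 in limma. Its levels ran from -0.59 to 0.36 in gonadal males, with a median of -0.23, and from -0.49 to 0.65 in gonadal females, with a median of 0.30. The 5 XX livers lay between 0.30 and 0.65, and XY- 3 was the low female. Calr, the soluble lectin that retains unfinished glycoproteins, differed by -0.37 ± 0.15 (adjusted p = 0.204, limma). Leaving out the 4 wide arrays, which were the 4 highest females for Calr, brought that difference to -0.075. Ppic and Ppib, cyclophilins of the secretory pathway, differed by -0.33 and -0.25 (adjusted p = 0.0847 and 0.280, limma). For Ppib too the 4 wide arrays were the 4 highest females. XX 6 stood at 0.68, XX 2 at 0.59, XY- 12 at 0.43 and XY- 3 at 0.25, and every other female at -0.0062 or lower.

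Over the 19 members of the ER list, 9 were below 0, among them the 5 just described, and 10 above. The median was 0.028, against 0.046 without the library labelled XY- 30 and -0.022 without the 4 wide arrays. Pdia5 alone passed, joined by Fkbp9 without the wide arrays; the 5 members at an unadjusted p under 0.05 in limma were all lower in gonadal males. Hspa5, the central sensor and folding helper of the ER, differed by -0.073 (95% interval -0.30 to 0.15), and Hsp90b1 by -0.071 (-0.27 to 0.13). Canx, the membrane-bound lectin, differed by -0.11, and Dnajb9, a J protein that is a target of the unfolded protein response, by 0.13. Pdia3, the isomerase that works with Calr and Canx, differed by 0.55 ± 0.33 (SE; adjusted p = 0.422, limma), with an interval of -0.14 to 1.24. The 5 genes whose ER stress elements are printed above, Hspa5, Hsp90b1, Calr, Canx and Dnajc3, had differences of -0.073, -0.071, -0.37, -0.11 and 0.046, and none of them passed.

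Among the Hsp70 partners, Dnajc21 ranged from -0.058 to 0.21 in gonadal males, with a median of 0.11, and from -0.39 to 0.083 in gonadal females, with a median of -0.19. In 6 gonadal males it exceeded the highest female. The difference was 0.23 ± 0.060 (SE; adjusted p = 0.0354, limma), 0.33 in XY- (exact permutation p = 0.0159) and 0.13 in XX (exact permutation p = 0.127). Above 0 were 4 of 4 J proteins of class A, 6 of 10 of class B and 13 of 16 of class C, and Dnajc21 alone passed. The 4 class A genes, which share the full domain order of bacterial DnaJ, had differences of 0.28 (Dnaja3), 0.26 (Dnaja2), 0.14 (Dnaja1) and 0.12 (Dnaja4). Without the 4 wide arrays the class A median fell from 0.20 to 0.11. The class B median went from 0.018 to -0.013 and the class C median from 0.060 to 0.077. Hspa8, the constitutive Hsp70 of the cytosol, differed by 0.053 over 11 probes, which individually ran from -0.078 to 0.30.

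Of 13 heat-inducible genes listed as HSF1 targets, which include the mitochondrial Hspd1 and Hspe1, none passed. Differences were above 0 for 12, with a median of 0.16 that fell to 0.073 without the 4 wide arrays. At an unadjusted p under 0.05 in limma there were 2, Hspd1 and Hspe1, and these passed without the library labelled XY- 30. Hspa1a, the inducible Hsp70, differed by 0.29 with an interval of -0.38 to 0.96, and Hsp90aa1, the inducible Hsp90, by 0.43 with an interval of -0.073 to 0.93. The Hsp110 gene Hsph1 differed by 0.16 (-0.42 to 0.75), the small heat shock protein gene Hspb1 by 0.059 (-0.48 to 0.60) and the J protein gene Dnajb1 by 0.14 (-0.29 to 0.56). These intervals are wide enough to hold differences larger than any that passed. The 5 Bag co-chaperones had a median of 0.12 (0.053 without the wide arrays), and Bag3, which links Hsp70 to autophagy, differed by 0.32 (adjusted p = 0.290, limma). Of 11 Fkbp genes, 4 were above 0 and none passed. Fkbp5, which the rule leaves out, did pass and is described below. The 6 measured members that serve steroid receptors, among them Hsp90aa1, Fkbp4, Dnaja1 and Bag1, had a median of 0.13 (0.047 without the wide arrays) and none passed.

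Other cells contributed to these livers, and in bulk tissue fewer cells of a type and less RNA per cell cannot be told apart. All 12 Kupffer cell and macrophage markers were lower in gonadal males, 6 past the threshold, with a median of -0.85; their mean over markers spanned -0.94 to 0.37 in gonadal males and -0.27 to 1.52 in gonadal females. Of 12 lymphocyte markers, 6 passed, all lower. Cd4, Gzma, Gzmb and Cd79a lay the other way, at 0.098, 0.18, 0.10 and 0.016, and none of these passed. The means over the 12 markers did not overlap (-0.38 to -0.14 against 0.017 to 0.68). The 6 neutrophil markers were all below 0 with a median of -1.14, and none passed; without the 4 wide arrays the median was -0.39 and 1 passed. In all arrays their means were -2.17 to -1.68 in gonadal males and -1.68 to 3.11 in gonadal females. The 8 hepatocyte markers had a median of 0.030 and none passed; without the library labelled XY- 30 the median was 0.070 and 1 passed, and without the wide arrays it was 0.080 and none passed. The part of these cells in the chaperone differences was not tested. Ratios to a pool cannot show whether a marker is absent.

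Sex chromosome complement gave no call among the 87 members (0.0278% of all features passed, 6 in all). Differences of XX minus XY were above 0 for 58 members (66.7%, against 45.3% of all features). The median member differed by 0.027 and the median feature by -0.0090. In limma 4 members, or 4.60% against 5.06% of all features, reached an unadjusted p under 0.05, all higher in XX: Dnaja4, Pdia5, Bag2 and Fkbp2. Without the library labelled XY- 30, 8 of the 87 members and 1426 of the 21556 features reached that unadjusted p. Still no member passed the test, where 13 features did. Dnaja4, a J protein of the cytosol, had the smallest p. It stood at 0.37, 0.38, 0.078, 0.26 and 0.19 in XX Sry livers and at 0.30, 0.17, 0.11, 0.19 and 0.11 in XX livers. In XY-Sry livers it stood at 0.12, 0.012, -0.030, -0.36 and 0.21, and in XY- livers at 0.082, -0.15, -0.12, -0.47 and -0.22. All 10 XX livers were above the XY median, and 4 were above the highest XY liver. The difference was 0.31 ± 0.072 (SE; adjusted p = 0.504, limma). Pdia5 was 0.24 higher in XX (adjusted p = 0.914, limma), and ranged from -0.45 to -0.076 in XY-Sry livers and from 0.090 to 0.40 in XX livers. The XX Sry and XY- livers overlapped both of these ranges.

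The gonadal difference did not pass a test of a change with the complement for any member (0% of features passed for the interaction). In limma 1 member, Cct3, had an unadjusted p under 0.05 (1.15%, against 2.58% of all features), and none did without the library labelled XY- 30, the highest XY- liver for Cct3 at 0.12. All 5 XX Sry livers exceeded all 5 XX livers, by 0.25 on average, whereas the difference was 0.053 in XY-. The difference of these differences was 0.19 ± 0.089 (SE; adjusted p = 0.9995, limma), and 0.16 without that library. Within single levels, no member passed for gonadal type in XX (0.645% of features did) or in XY- (0.158%), nor for sex chromosomes in gonadal males (0.00464%) or gonadal females (0%). At an unadjusted p under 0.05 these 4 limma comparisons held 12, 8, 3 and 5 members, or 13.8%, 9.20%, 3.45% and 5.75%, against 12.1%, 9.29%, 2.06% and 6.08% of all features. Without the library labelled XY- 30 the counts were 13, 16, 3 and 5 members, against 2778, 2556, 480 and 1300 of all 21556 features. There 1 member passed for gonadal type in XX, where 169 features passed.

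Some chaperones varied widely between animals of a group. Pdia3 had the largest SD within groups, 0.795, above 99.5% of all features, followed by Hspa1a (0.774), Hsph1 (0.676), Dnajc7 (0.639), Hspb1 (0.619), Hsp90aa1 (0.578) and Dnajb1 (0.489). At the other end, Hspa12a and Hspb7 had an SD of 0.061. Hspa1a stood at 1.30, 0.48, 0.96, 0.013 and -0.95 in the 5 XX Sry livers and at -0.43, -1.15, -0.56, 0.93 and -0.68 in the 5 XY-Sry livers. It stood at -0.30, -1.08, 0.20, 0.998 and -0.62 in XX livers and at -0.45, -0.23, -1.14, -0.84 and 0.46 in XY- livers. High and low livers thus occurred in each group.

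XX Sry 9 and XY-Sry 5 were the livers in which most of the inducible genes were high together. Hsph1 stood at 1.12 in XX Sry 9 and 1.23 in XY-Sry 5, Hspb1 at 1.09 and 1.24, and Hsp90aa1 at 0.86 and 1.02. Not all went this way: Hspa4 of the same list stood at -0.16 and -0.19, and Hspe1 at -0.0059 and 0.12. The mean of the 13 inducible genes was 0.51 and 0.59 in these livers, and lowest in XY- 24 at -0.59 and XX Sry 32 at -0.34. The cause of this spread was not tested.

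**Figure D4:**
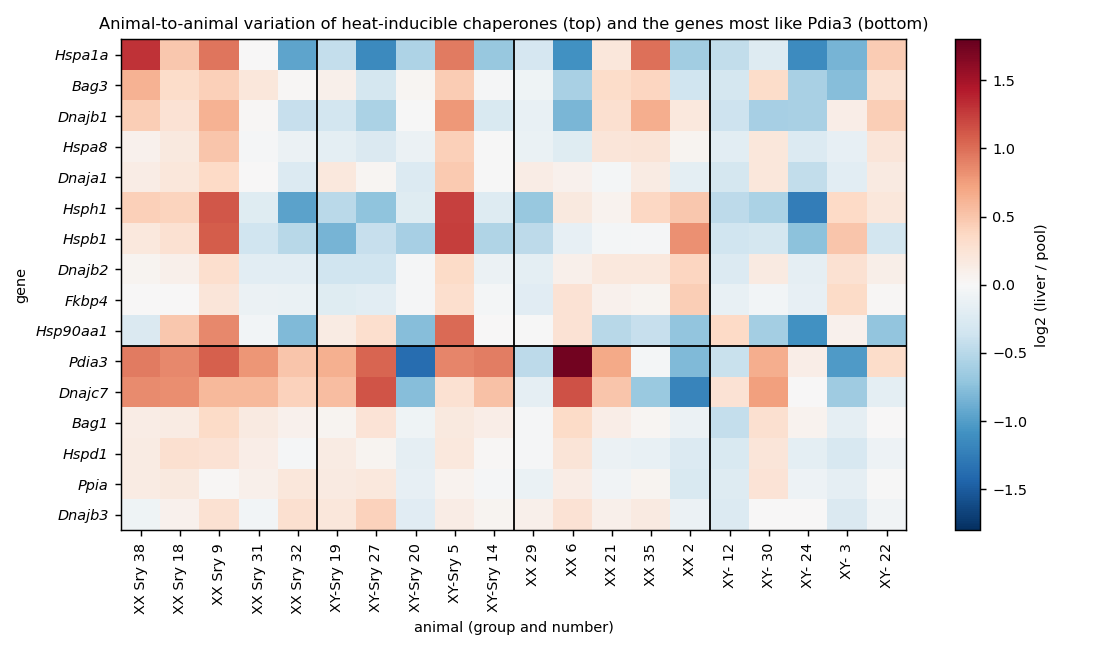
Log2 ratio of liver to pool for 16 members (rows) in the 20 animals (columns, in 4 groups separated by black lines), from blue (below the pool) to red (above it). The upper block holds heat-inducible genes, without Hspa4, Hspa4l, Hspd1 and Hspe1 of that list. Dnajb2 is not on the list and was added for its likeness to Hsph1. The genes of this block are red together in XX Sry 9 and XY-Sry 5 and blue in XY- 24. In the lower block Pdia3 and Dnajc7 are red in XX 6 and blue in XY-Sry 20.

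Members whose deviations from the group means went most alike were found over the 20 livers, as a description only, since the livers share the pool and the array. Hspa1a went with its co-chaperone Bag3 (Pearson's r = 0.853), with Dnajb1 (0.845), Hspa8 (0.809), Dnaja1 (0.701) and Hsph1 (0.685). Among all features, Bag3 was the 2nd most like Hspa1a, Dnaja1 the 41st and Hsph1 the 55th. Hsph1 went with Hspb1 (r = 0.878), Dnajb2 (0.867) and Fkbp4 (0.827). Pdia3 went with other members: Dnajc7, a co-chaperone of Hsp70 and Hsp90 (r = 0.878), Bag1 (0.764), Hspd1 (0.762), Ppia (0.714) and Dnajb3 (0.679). Among all features these ranked only 12th, 100th, 104th, 232nd and 360th in likeness to Pdia3. In all, 284 features (1.32%) had an r of at least 0.7 with Pdia3, 4 of them members (4.65%). With Hspa1a and Hsph1 its r was 0.080 and 0.046. Without the 2 livers farthest from the median, r was 0.826 for Hspa1a with Bag3, 0.825 for Hsph1 with Hspb1 and 0.787 for Pdia3 with Dnajc7. For the other pairs named it was 0.601 to 0.831 for Hspa1a and Hsph1, and for Pdia3 it was 0.734 with Bag1, 0.667 with Hspd1, 0.610 with Ppia and 0.519 with Dnajb3. The lowest Pdia3 level was that of XY-Sry 20 at -1.36, where the other XY-Sry livers stood at 0.65 to 1.05.

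Genes of the same pathways were listed outside the set. Of 12 heat shock response genes that are no members, 3 passed between gonadal types, against 1 without the 4 wide arrays: Tcp1, described above; Serpinh1, the collagen chaperone of the ER, lower; and Cryab, a small heat shock protein known as alpha B-crystallin, lower. Serpinh1 ranged from -0.41 to -0.091 in gonadal males and from -0.20 to 0.75 in gonadal females, and 5 gonadal males were below the lowest female. The difference was -0.44 ± 0.10 (SE; adjusted p = 0.0201, limma); it passed with any 1 library left out, and it was -0.24 (adjusted p = 0.0268, limma) without the 4 wide arrays. Of the 6 stellate cell and fibroblast markers, 5 were below 0 with a median of -0.15 and none passed; their part in the Serpinh1 difference was not tested. The Cryab difference was -0.26 ± 0.070 (adjusted p = 0.0459, limma). The call for Cryab was lost without any 1 of XX Sry 38, XX Sry 18, XX Sry 9, XX Sry 31, XX Sry 32, XY-Sry 19, XY-Sry 27, XY-Sry 20, XY-Sry 5, XX 29, XX 6, XX 21, XX 2 or XY- 24, and that for Tcp1 held in 7 of 20 such fits.

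Of 19 genes of the unfolded protein response outside the set, 1 passed, against 3 without the library labelled XY- 30 and 2 without the 4 wide arrays. It was Sec24d, a coat protein of transport vesicles that leave the ER, which was 0.41 ± 0.10 (SE; adjusted p = 0.0356, limma) higher in gonadal males, 7 of which exceeded the highest female, and its adjusted p was 0.199 without the 4 wide arrays. Ddit3 (CHOP), a transcription factor of prolonged ER stress, differed by -0.37 (adjusted p = 0.0851, limma) and by -0.42 without the library labelled XY- 30, where it passed (adjusted p = 0.0382, limma). Derl3, which serves in ER-associated degradation, differed by -0.58 (adjusted p = 0.104, limma) and by -0.47 without the 4 wide arrays, where it passed (adjusted p = 0.0396, limma), with 9 gonadal males below the lowest female. Asns, asparagine synthetase and a target of the ATF4 branch, differed by 0.84 ± 0.28 (SE; adjusted p = 0.102, limma) and varied widely, from -1.69 to 0.83.

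Of 16 other chaperones and co-chaperones, Tcp1 alone passed, and none without the 4 wide arrays; Stub1, an Hsp70-bound ubiquitin ligase, Ptges3, the Hsp90 co-chaperone p23, and Tor1a, an ER ATPase, differed by -0.081, 0.12 and 0.20. Of 9 glucocorticoid-induced genes, Fkbp5, the Fkbp gene that the rule leaves out, passed at 1.21 ± 0.23 (SE; adjusted p = 0.0060, limma). It ranged from -0.66 to 1.17 in gonadal males and from -1.45 to 0.031 in gonadal females. The list's median was -0.0028, with 5 of the 9 below 0; Tat, a liver enzyme of tyrosine breakdown, differed by 0.35, Tsc22d3 by -0.28 and Lcn2 by -0.26, and none of these passed. Among the 11 Fkbp members, differences ran between -0.12 for Fkbp8 and 0.17 for Fkbp14.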

How the data were processed

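The authors deposited 1 table of log10 ratios, liver to pool, with 23574 probes on 20 arrays, 1 animal each. The log base and direction are given by neither labels nor headers and were read from the Y-linked genes: over 9 XY livers the mean ratio to the pool was 1.74 for Eif2s3y and 1.68 for Kdm5d in base 10, and 1.18 and 1.16 in base 2, where a pool of equal XX and XY shares gives a ratio near 2. Another base would scale every difference and leave p-values as they are. Per the labels' protocols, RNA came from RNeasy columns and was labelled by an aminoallyl MessageAmp II procedure; the pool is labelled as 17 mice but described as equal shares of each sample. The sources used here do not give the scanner, background correction, dye normalization or intensities. Precision is limited by the number of arrays. Ratios were converted to log2, probes of 1 symbol averaged (names from the platform annotation, updated through Entrez IDs), and 4 group means fitted with limma 3.58.1 (R 4.3.3), adjusting by Benjamini-Hochberg over 21556 features at 0.05. The fit was tested on simulated data. No member value was missing or at the scale's limit of 2, and 3 member probes carry a non-mouse Entrez ID (the single Dnajb11 probe and 2 of 3 for Dnajc5).

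The members and all lists were chosen with earlier results of these data known. Named genes were those past the threshold, per factorial effect the 6 members with the smallest p, the 10 with the largest SD within groups, fixed inducible and ER members, and up to 4 genes with the smallest p per list; Hspa8, Dnaja2, Dnaja3, Ppib, Hspb7, Cct5, Cct6b, Cct8l1, Dnajb2, Dnajb3, Ppia, Dnajb6, Dnajc3, Fkbp8 and Fkbp9 were added after their values were seen. Alternatives were other array scalings, array weights, moderation settings, features tested, probes fitted alone, and libraries left out.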

Additional observations from a re-analysis of the deposited data

Results flagged for a closer look

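In each group of 5 livers, the highest or lowest level of a named gene was set against the rest by Dixon's criterion (0.710 for 5 samples). Of 220 groups checked, 11 stood apart, where chance gives about 1 in 20, so the count was no more than chance gives. Some of the genes checked, among them Pdia3, Hsph1, Hspb1 and Dnajc12, were named for a large SD within groups, which a single far liver raises. The livers below are therefore listed as a description only. Beyond the inducible genes, Pdia3 and Cct8 are the members whose single livers stood farthest out.

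XY-Sry 5 was far above its group for Hsph1, at 1.23 against -0.22 for the next liver, and for Hspb1, at 1.24 against -0.42. In the same liver Sec24d stood at 0.59, with 0.12 next, and Tor1a at -0.24, with 0.16 next. Pdia3 was at -1.36 in XY-Sry 20, with the next at 0.65. Cct8 was at 0.64 in the library labelled XY- 30, with the next at -0.17, and Cct6a at -0.65 in XY- 3, with the next at -0.21. Dnajc12, a J protein gene, was at -0.55 in XX Sry 9, with the next at 0.044. Hspa5 was at 0.20 in XX Sry 38, with the next at -0.027, and Ppif at 0.13 in XX 6, with the next at -0.24. Lcn2, a glucocorticoid-induced and acute phase gene, was at 1.43 in XY- 12, with the next at 0.00087.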

How the results depend on the processing

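No paired analysis was possible because the animal numbers are all different and pair no livers across groups. The count of 5 members past the threshold between gonadal types became 10 without the library labelled XY- 30, 2 without the 4 arrays of widest spread, 3 with median-centred arrays and 12 with array weights. In these fits 1129, 830, 706 and 1554 features passed, against 808 in the main fit. The member count was 7 with quantile normalization (1190 features), 7 with every probe fitted alone and 4 with trend and robust moderation (792 features). It was 5 with limited values left out (807 features) or with named features only (533 features). Leaving out 1 animal at a time gave 0 to 10 members, where 1.81% to 5.24% of all features passed. Cct4 passed in 15 of these 20 fits, Dnajc21 in 8, Cct6a and Pdia5 in 7 each and Hspa9 in 5. For gonadal type within XX the count of 0 became 1 without the library labelled XY- 30, where 169 features passed. The count was 2 with array weights, 1 (Hspa9) with only the 2 groups fitted and 0 to 1 over the left-out animals. The counts for sex chromosomes, the interaction and the other single levels were 0 under every alternative run. No named gene that passed changed direction under any alternative. Every value is a ratio without its intensity, so signal over background is unknown, and no gene here can be called absent or near the detection limit.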

Other observations

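Probes of 1 gene did not always give the same picture. The 2 probes of Hspa1a went together over the 20 livers (r = 0.947), as did those of Dnajc2 (0.969) and Hspe1 (0.910). The 11 probes of Hspa8 had r between 0.039 and 0.995, the 11 of Hspd1 between -0.436 and 0.998, and the 12 of Ppia between -0.350 and 0.989. For these genes the average over probes blends signals that differ in spread: the SD over livers was 0.086 to 0.51 for single Hspa8 probes and 0.087 to 0.41 for single Hspd1 probes. What each probe binds was not tested.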
